A study of Mus musculus with 6 samples.

Results

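The genes described here are the mouse Zfp genes, the protein-coding genes whose symbol is Zfp followed by a digit. They were read in HL-1 cells, a line of mouse atrial cardiomyocytes, after knockdown of the long noncoding RNA Malat1. Of the 21269 genes in the table, 360 carry such a name and 346 of these are annotated as coding. The 268 whose normalized count averaged at least 50 over the 6 libraries are the members. A normalized count is the number of reads on the exons of a gene after scaling by one factor per library, so a count of 100 in one library can be set beside 100 in another. The other 78 coding Zfp genes lay below that level, and 23 of them were too low to be tested. Members were selected on their mean level, and the rule does not use the difference between the groups. In 13 members an average of 50 was reached with one group below it, and 6 of these are among the 21 called members described below. The 3 members just inside the limit were Zfp383, Zfp583 and Zfp964 with means of 50.3, 51.0 and 51.5, and the 3 genes just outside were Zfp69, Zfp688 and Zfp619 with 49.3, 48.5 and 47.5.

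Both groups were HL-1 cells of one line, seeded 24 hours before transfection with 50 nM of an LNA gapmer and collected 48 hours after it. Gapmers are DNA oligonucleotides with locked nucleic acid ends, and RNase H cuts the RNA to which they pair. LNA Control carried a control gapmer (3 libraries) and LNA Malat1 a gapmer against Malat1 (3 libraries), and no untransfected cells are part of the comparison. The labels do not say whether the libraries of a group came from separate cultures, so p-values measure only the spread between these libraries, which may be technical. In RNA from whole cultures, fewer cells of a type and less RNA per cell cannot be told apart.

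Zinc fingers of the C2H2 type are short modules in which a pair of cysteines and a pair of histidines hold a zinc ion, and most proteins with such fingers bind DNA. Many of them also carry a KRAB domain, whose A box recruits the corepressor Trim28 and, with it, the histone methyltransferase Setdb1. KRAB zinc finger genes arose by repeated duplication, sit side by side in clusters on the chromosomes, and are known for silencing retrotransposons. The symbol Zfp was given by resemblance, so the name also covers CCCH proteins that bind AU-rich mRNA, ubiquitin ligases and cytoskeletal proteins.

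The family's repeated unit is shown first because it is what these genes share in sequence. Coding transcripts of GENCODE M21 were searched under the symbols of zinc finger families and translated, which covered 266 of the 268 members. Zfp267 and Zfp469 had none under such a symbol there. At least 1 C2H2 finger was found in 258 members. The median was 10 fingers and the highest number was 36, in Zfp142. The 8 members without a match were Zfp36, Zfp36l1, Zfp36l2, Zfp185, Zfp330, Zfp365, Zfp503 and Zfp703. The count used a set spacing of cysteines and histidines, so a finger of other spacing would be missed. In 191 members a finger was followed by the linker threonine, glycine, glutamate, lysine, proline. The first such finger and its linker are printed here for a pair of members that fell and a pair that rose, from the coding strand (mm10), with the 5 linker codons in capitals. Each lies in the last exon of its transcript: Zfp12 at chr5:143244616-143244693 (+), Zfp933 at chr4:147826664-147826741 (-), Zfp964 at chr8:69663490-69663567 (+) and Zfp37 at chr4:62192103-62192180 (-).
Zfp12: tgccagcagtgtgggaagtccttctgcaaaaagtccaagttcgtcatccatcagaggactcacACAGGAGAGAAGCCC
Zfp933: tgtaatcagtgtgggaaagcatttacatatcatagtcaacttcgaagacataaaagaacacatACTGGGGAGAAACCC
Zfp964: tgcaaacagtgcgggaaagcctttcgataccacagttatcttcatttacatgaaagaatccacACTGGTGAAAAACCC
Zfp37: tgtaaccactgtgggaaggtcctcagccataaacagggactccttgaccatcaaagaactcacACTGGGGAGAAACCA

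A KRAB A box, counted where at least 12 of 20 conserved residues were found, was present in 142 of the members translated and absent from 124. Members with the box had a median of 12 fingers and those without it 7. The following 75 bases code for part of this box and are identical in the neighbouring genes Zfp955a (chr17:33244048-33244122, minus strand) and Zfp955b (chr17:33300593-33300667, plus strand), in exon 2 of 4 of each (mm10, GENCODE M21). Capitals mark the 14 codons that matched, of 15 conserved positions within the stretch.
Zfp955a and Zfp955b: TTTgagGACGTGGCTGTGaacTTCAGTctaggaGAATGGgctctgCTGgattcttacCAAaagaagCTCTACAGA
A read of 75 bases from this stretch matches both genes, and reads aligning to more than one place were left out by the authors. Of all 75-base windows of Zfp955a, 37.1% also occurred in transcripts of another gene. By gene identifier, 267 members had coding transcripts. Of these, 145 shared at least 1 window with another gene and 45 shared 10% or more. Windows were matched on either strand, so genes that overlap a member count too, and reads from shared windows may not have been counted.

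The scaling factors recovered from the rounded values gave 4512253 to 5592464 reads on genes per library. Malat1 itself had normalized counts of 5051, 5197 and 4369 in the 3 LNA Control libraries and 2833, 2792 and 2732 in the 3 LNA Malat1 libraries, so that its log2 fold change was -0.80 (SE 0.07, adjusted p = 7.5e-06 in limma). Sampling noise alone gives a chi-square near 1 per gene between libraries. LNA Malat1 replicates 1 and 3 gave 0.949 and were averaged into a single sample for each mean and SD of that group (n = 2). Replicates 1 and 2 were almost as close at 1.01, replicates 2 and 3 gave 1.16, and the 3 pairs of controls gave 1.77 to 4.18. The limma fit kept all 3 LNA Malat1 libraries, so its SE and p treat the near-identical ones as separate. LNA Control 1 stood apart from the other controls in many members, which is described with the values it touches. Of the markers checked, all 8 cardiomyocyte genes were in the table, with sums of 12599 to 16429 in LNA Control and 19099 to 20450 in LNA Malat1, of which Ttn made up 8524 to 12110 and 15112 to 16320, and Myh6 was near 0 (0 to 7) in every library. The 2 atrial genes measured of 3 summed to 54 to 67 and 67 to 81. Of other cell types, 2 of 3 fibroblast genes summed to 4281 to 5035 and 3810 to 3982, 1 of 3 endothelial genes to 1 to 10 and 8 to 17, and 1 of 3 immune genes to 14 to 23 and 31 to 38. The part of these marker levels in the Zfp results was not tested.

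The comparison asked which Zfp genes differed after the Malat1 gapmer. Of the 268 members, 13 were called upregulated and 8 downregulated, and 184 did not reach an adjusted p of 0.05. Called means that limma, fitted across all 15650 genes with a mean of at least 5, gave an adjusted p of 0.05 or less together with a change of 1.5-fold or more. The 13 upregulated members are 4.85% of the family, where 8.0% of all genes tested and 2.38% of coding genes at the same level limit were called upregulated. The 8 downregulated members are 2.99%, against 2.92% and 3.47%. The coding genes at that limit, 9918 with a mean of at least 50, are the background with the same biotype and lower level limit as the members. Their levels are not matched beyond that limit. The median of the mean counts was 322.4 in these coding genes and 208.4 in the members.

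Without the fold limit, 49 members rose (18.3% of the family, 14.3% of all genes and 11.0% of coding genes at the level limit) and 35 fell (13.1%, 14.0% and 20.6%). All 3 LNA Malat1 libraries lay above all 3 controls in 61 members and below them in 43, which is 22.8% and 16.0%, where coding genes at the limit gave 16.2% and 29.7% and all genes tested 20.5% and 20.8%. The median log2 fold change of the members was 0.046, beside 0.018 over all genes tested and -0.040 over those coding genes. The members' median was 0.013 without LNA Control 1 and between 0.039 and 0.073 without each of the other libraries. With LNA Malat1 1 and 3 merged, 26 members rose and 22 fell, 8 were called upregulated and 9 downregulated, and Zfp748, Zfp72, Zfp119a, Zfp442 and Zfp523 were no longer called. With library totals set equal the members that rose and fell were 60 and 27. The number called upregulated was 10 without LNA Control 1, 7 without LNA Control 2, 23 without LNA Control 3, and 7, 10 and 8 without LNA Malat1 1, 2 and 3, so that count rests on which libraries are used. The number that rose was lowest without LNA Control 2 or LNA Malat1 3 (26 each) and highest without LNA Control 3 (76), and the number that fell was lowest without LNA Malat1 1 (21) and highest without LNA Control 1 (44). The number called downregulated stayed between 6 and 9 in those fits.

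**Figure D1:**
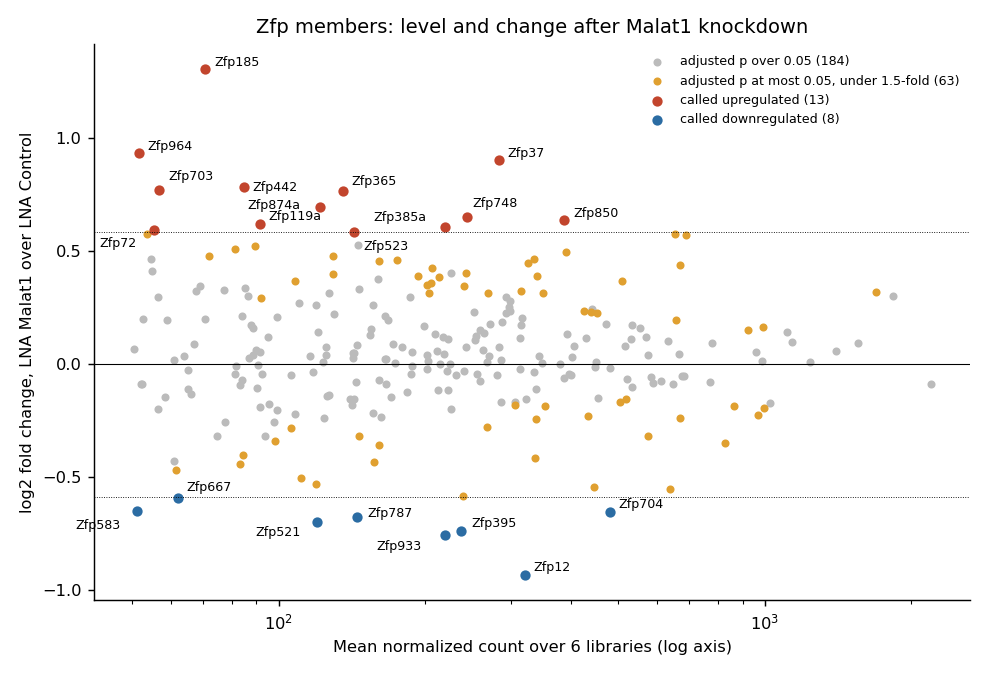
Each point is 1 of the 268 Zfp members, with its mean normalized count over 6 libraries on a log axis and its log2 fold change (LNA Malat1 over LNA Control) on the vertical axis. Dotted lines mark a 1.5-fold change, 21 named points passed both limits, and Zfp185 is the only one beyond a log2 fold change of 1.

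Among the members that rose most, 3 had no finger that matched the C2H2 pattern searched. Zfp185, which despite its name is a LIM domain protein of the actin cytoskeleton encoded on the X chromosome, had counts of 38, 52 and 32 in the controls and 91, 110 and 100 in LNA Malat1. Its group means were 40.7 ± 10.3 (SD, n = 3) and 103 ± 10.3 (SD, n = 2), and the groups were far apart. The log2 fold change was 1.31 (SE 0.17, adjusted p = 0.00012 in limma), the one change among the members of more than 2-fold. Zfp365, a DISC1-binding protein of centrosomes and neurons, had 101, 115 and 85 in the controls and 163, 185 and 164 in LNA Malat1, which gave a log2 fold change of 0.77 (SE 0.11, adjusted p = 0.00029 in limma). Zfp703, a transcriptional corepressor amplified in breast cancer, had 53, 30 and 44 against 68, 65 and 81, and its change of 0.77 (SE 0.19) was no longer called without LNA Control 2 (log2 fold change 0.55) or without LNA Malat1 3 (adjusted p = 0.066 in limma).

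The other risers named by size had counted C2H2 fingers. Zfp964, a KRAB zinc finger gene on chromosome 8, had 33, 30 and 42 in the controls and 57, 64 and 83 in LNA Malat1, which gave a log2 fold change of 0.93 (SE 0.18, adjusted p = 0.0022 in limma). Zfp37, a zinc finger gene first known from testis, had 136, 224 and 244 against 368, 373 and 357. LNA Control 1 was the lowest library by a wide margin for Zfp37, yet all 3 controls lay below all 3 LNA Malat1 libraries, and the log2 fold change of 0.90 (SE 0.16, adjusted p = 0.0012 in limma) was called with any 1 library left out. Zfp874a, a KRAB gene of the chromosome 13 cluster described below, had 85, 88 and 105 against 143, 150 and 158 (log2 fold change 0.70, SE 0.10). For Zfp442 the controls were spread from 38 over 63 to 92 and nearly reached the LNA Malat1 values of 97, 110 and 108. Its log2 fold change of 0.78 (SE 0.23) was 0.46 without LNA Control 1 and was called in 1 of the 6 fits that each left out a library, the one without LNA Control 3. Zfp748 had 128, 204 and 248 against 305, 303 and 273, and its change of 0.65 was 0.38 without LNA Control 1, while its adjusted p in limma was 0.071 and 0.064 without LNA Malat1 1 and 2.

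The remaining upregulated members had log2 fold changes between 0.59 and 0.64. They were Zfp850, Zfp119a, Zfp72, Zfp385a, an RNA-binding protein and cofactor of p53, and Zfp523, a close relative of the transcriptional activator Zfp143. Without LNA Control 1 the log2 fold changes of the first 3 were 0.43, 0.45 and 0.36, and Zfp385a and Zfp523 sat so near the 1.5-fold limit that leaving out LNA Control 2 or LNA Malat1 1 moved them below it, as did leaving out LNA Control 3 for Zfp385a and LNA Malat1 3 for Zfp523. Zfp119a was also lost without LNA Control 2 and without each LNA Malat1 library, Zfp72 in 5 of the 6 such fits, and Zfp850 without LNA Malat1 2 (log2 fold change 0.58).

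Of the 8 downregulated members, 3 are neighbours on chromosome 7 and 5 lie apart. Zfp12, a KRAB zinc finger repressor on chromosome 5, had 407, 446 and 410 in the controls and 216, 212 and 233 in LNA Malat1. Its means were 421 ± 21.7 (SD, n = 3) and 218 ± 8.8 (SD, n = 2). The log2 fold change of -0.93 (SE 0.06, adjusted p = 9.5e-07 in limma) had the smallest adjusted p of the 21 called members, and the groups did not overlap. Zfp933, a KRAB gene on chromosome 4, had 255, 286 and 287 against 153, 165 and 171 (log2 fold change -0.76, SE 0.08, adjusted p = 1.5e-05 in limma). Its cluster neighbours Zfp979 and Zfp984 did not pass the test, and Zfp979, the highest of the 3, had a log2 fold change of 0.20 with overlapping groups. Zfp395 and Zfp704 are related proteins with a single C2H2 finger each, and both fell. Zfp395 had 350, 290 and 253 against 176, 173 and 181 (log2 fold change -0.74, SE 0.10, adjusted p = 0.00015 in limma). Zfp704 had 642, 579 and 536 against 394, 325 and 400, and its change of -0.65 (SE 0.09) sat just under the limit, at -0.58, without LNA Control 1 and at -0.56 without LNA Malat1 2. Zfp704 overlaps the gene C030034L19Rik and shares 17.5% of its windows with it. Zfp521, a protein of 27 counted fingers that regulates early blood, neural and fat cell differentiation, had 148, 118 and 182 against 83, 100 and 89. Its change of -0.70 (SE 0.14, adjusted p = 0.0027 in limma) was -0.54 without LNA Control 3.

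**Figure D2:**
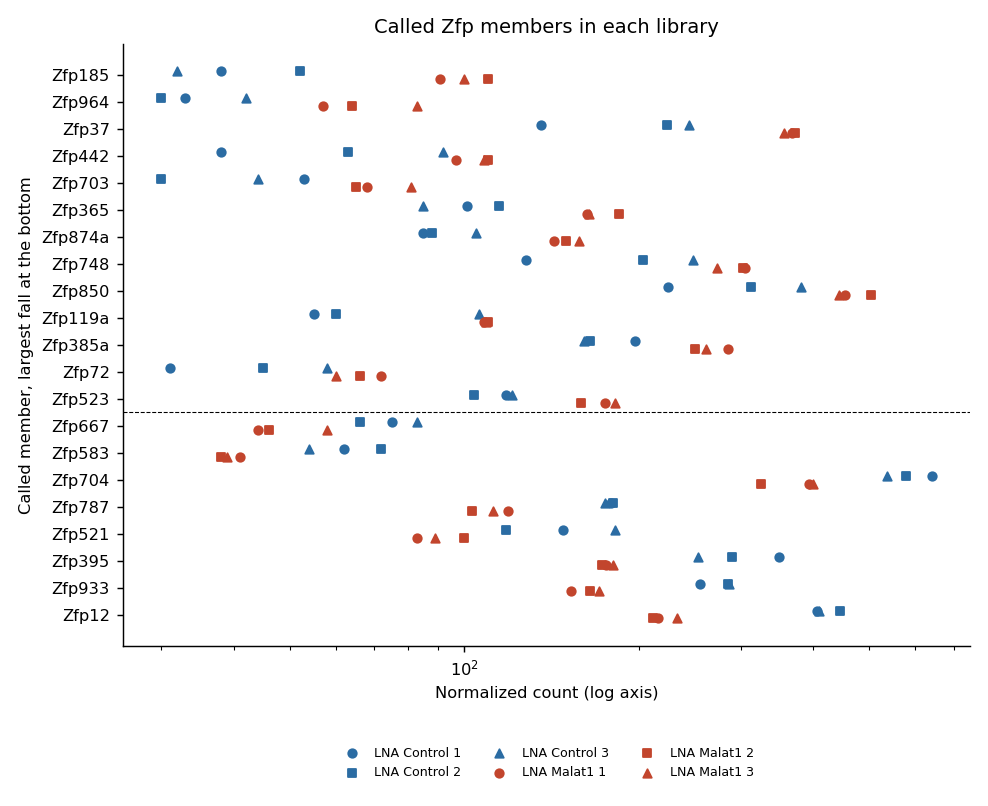
Normalized counts on a log axis of the 21 called members in each library, LNA Control in blue and LNA Malat1 in red, with the marker shape giving the replicate number. Above the dashed line are the 13 upregulated members, in several of which LNA Control 1 (blue circle) is the lowest point, and below it the 8 downregulated ones, in none of which do the groups overlap.

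In a run of 5 neighbours on chromosome 7, 4 members fell and 3 of these were called downregulated. Of coding genes at the level limit, 20.6% fell and 3.47% were called downregulated. Clusters were taken as at least 3 members with no more than 500 kb between neighbours, which gave 19 clusters with 124 members. The run is the cluster with the lowest median log2 fold change of the 19. It held Zfp787, Zfp444, Zfp667, Zfp583 and Zfp28 within 0.27 Mb (chr7:6131491-6396915, mm10), with no other gene at a mean of 50 or more between them. Zfp787 had 179, 181 and 175 in the controls and 119, 103 and 112 in LNA Malat1, for a log2 fold change of -0.68 (SE 0.08, adjusted p = 8.7e-05 in limma). Zfp444, a SCAN domain activator, had 138, 151 and 134 against 93, 102 and 97 (log2 fold change -0.53, SE 0.09, adjusted p = 0.0010 in limma), a fall of under 1.5-fold. Zfp667, known as Mipu1 from its induction in ischaemic heart muscle, had 75, 66 and 83 against 44, 46 and 58. Its log2 fold change of -0.59 (SE 0.15, adjusted p = 0.011 in limma) was -0.51 without LNA Control 3, -0.52 without LNA Malat1 1 and -0.55 without LNA Malat1 2, below the limit in each. Zfp583 had 62, 72 and 54 against 41, 38 and 39 (log2 fold change -0.65, SE 0.15, adjusted p = 0.0068 in limma), and it was -0.55 without LNA Control 2. For Zfp667 and Zfp583 the LNA Malat1 mean lay below the level limit of 50.

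In each of these 4 genes the highest LNA Malat1 library lay below the lowest control. Zfp28 closed the run with 117, 109 and 94 against 97, 87 and 83, overlapping groups and a log2 fold change of -0.26 (adjusted p = 0.11 in limma). The median of the 5 was -0.592, and -0.586 without LNA Control 1, which was the lowest control in none of them. Zfp78, a coding Zfp gene inside the same span with a mean of 42.7, had a log2 fold change of -0.29 (adjusted p = 0.30 in limma). The run mixes 3 KRAB members (Zfp667, Zfp583 and Zfp28) with 2 that lack the box, and the next cluster along the chromosome, the 4 members from 7114690 to 7209998, had a median of -0.044 and none that passed the test.

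**Figure D3:**
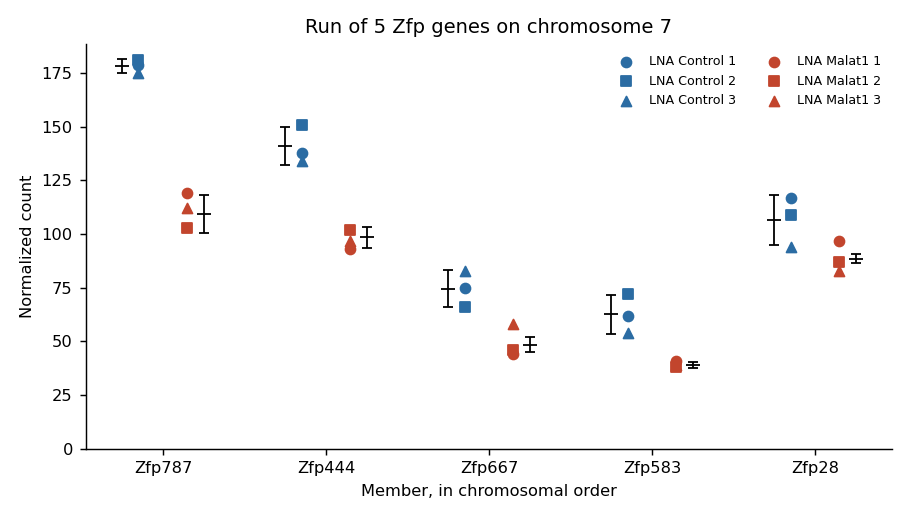
Normalized counts of the 5 members of the chromosome 7 run in chromosomal order, LNA Control in blue and LNA Malat1 in red with the marker shape giving the replicate number, and bars of mean ± SD (n = 3 and n = 2). The red points lie below all blue points for Zfp787, Zfp444, Zfp667 and Zfp583, and the groups overlap for Zfp28.

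Because 4 of these 5 neighbours fell, the 250 bases before start sites of the run are shown, with the GC box GGGCGG in capitals on either strand. Only RefSeq starts within 100 bases of the 5′ end of the gene in the deposited table were used, which leaves Zfp787 (chr7:6155966-6156215, minus strand), Zfp667 (chr7:6286330-6286579, plus) and Zfp28 (chr7:6383068-6383317, plus), which did not pass the test and is shown because its start met the distance limit. Zfp12 (chr5:143234913-143235162, plus) is added as the member with the largest fall. The build is GRCm38.p6.
Zfp787: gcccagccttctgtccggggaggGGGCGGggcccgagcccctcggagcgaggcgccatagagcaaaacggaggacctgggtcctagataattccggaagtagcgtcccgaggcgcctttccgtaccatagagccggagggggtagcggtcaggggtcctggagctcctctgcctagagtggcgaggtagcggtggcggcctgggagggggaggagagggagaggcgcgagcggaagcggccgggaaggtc
Zfp667: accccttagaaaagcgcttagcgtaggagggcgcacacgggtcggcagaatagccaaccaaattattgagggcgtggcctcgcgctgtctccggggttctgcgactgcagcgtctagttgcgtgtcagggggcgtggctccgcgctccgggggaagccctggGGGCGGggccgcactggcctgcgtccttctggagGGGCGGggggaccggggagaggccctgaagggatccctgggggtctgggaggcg
Zfp28: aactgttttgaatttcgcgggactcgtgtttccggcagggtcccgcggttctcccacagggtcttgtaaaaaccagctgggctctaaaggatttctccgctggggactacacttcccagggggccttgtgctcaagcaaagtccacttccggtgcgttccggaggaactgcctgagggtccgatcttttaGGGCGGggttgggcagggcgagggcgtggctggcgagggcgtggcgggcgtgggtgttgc
Zfp12: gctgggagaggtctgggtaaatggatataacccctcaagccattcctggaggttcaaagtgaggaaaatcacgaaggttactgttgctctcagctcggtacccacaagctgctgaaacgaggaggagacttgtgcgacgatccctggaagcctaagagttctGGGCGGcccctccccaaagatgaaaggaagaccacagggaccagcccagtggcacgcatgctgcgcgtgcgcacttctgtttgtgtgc
The window of Zfp667 held 2 GC boxes and each of the other 3 held 1. Of the 4 downregulated members with a window, 3 held a GC box and Zfp933 held none. Of the 10 upregulated members with a window, 3 held one, and so did 63.3% of coding genes at the level limit. These windows are too few for a comparison.

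RefSeq windows passed the distance limit for 181 members, and GGGCGG was found in 39.2% of them, against 56.3% of the 9280 genes with such a window and 63.3% of the 6153 coding genes at the level limit. The share was 30.8% of 107 members with a KRAB A box and 50.7% of 73 without. The windows also differed in base composition. Their median content of G and C was 54.0% in members and 60.4% in those coding genes. It was 52.0% in members with a KRAB A box and 60.4% in those without. The part of base composition in the motif shares was not tested. CCAAT, searched on both strands in the same way, was found in 49.7% of members, 37.7% of all windows and 39.5% of those coding genes. In the same order, ACTACAA, the core of the element bound by Zfp143, was in 7.18%, 3.79% and 4.63%, TATAAA in 7.73%, 7.04% and 5.56%, and CACGTG in 8.29%, 8.33% and 9.41%. None of these 5 motifs contains another. A match describes the letters of the window and is not a measured binding site.

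The medians of the other 18 clusters lay between -0.267 and 0.327. On chromosome 7 from 12478293 to 12974236, Zfp606, Zfp329, Zfp110 and Zfp324 all had negative log2 fold changes (median -0.267) and 3 fell. Zfp329, the lowest, had 143, 176 and 225 in LNA Control against 127, 126 and 144, with LNA Malat1 3 just above LNA Control 1, and Zfp110 had the smallest change at -0.15 (adjusted p = 0.049 in limma). In the 12 members between 29768552 and 30169750 on that chromosome the directions were split. Zfp790 fell (log2 fold change -0.36), Zfp420 rose (0.58, from 47, 38 and 44 to 64, 63 and 66) and the median was -0.020. None of the 8 members of the cluster from 127233061 to 127885996 passed the test. Over the whole chromosome, 12 of 62 members fell and 4 rose, where 20.6% of all coding genes at the level limit fell and 11.0% rose.

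More members rose than fell on chromosomes 13 and 17, and this was not particular to them. The same held on chromosomes 1, 2, 8, 9, 10, 12 and 16, and on chromosome 2 it was 5 of 14 that rose and 1 that fell. Over all chromosomes, 11.0% of coding genes at the level limit rose and 20.6% fell. On chromosome 13, 7 of 21 members rose and none fell, and 5 of these 7 lie in a cluster of 12 KRAB genes (67254918 to 67792512, median 0.314). Zfp874a was its highest member and Zfp87, with 94, 87 and 100 against 86, 89 and 86, its lowest (log2 fold change -0.10). LNA Control 1 was the lowest control in 91.7% of these 12 genes and LNA Control 3 the highest in 100.0%, and the median without LNA Control 1 was 0.131. Zfp595 and Zfp738 still passed the test without that library, as did Zfp874a and Zfp748, while Zfp65 did not (adjusted p = 0.099 in limma). On chromosome 17, 10 of 40 rose and 1 fell. Its largest cluster, of 21 members, had a median of 0.138 that became -0.033 without LNA Control 1. In the second, of 11 members, Zfp472 was the highest (88, 111 and 127 against 148, 141 and 162), and the pair Zfp955a and Zfp955b both rose by 0.40 on the log2 scale.

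Called members also stood alone within their clusters. Zfp964 on chromosome 8 was the 1 of 5 neighbours that passed the test, with Zfp868 lowest at -0.22, and Zfp442 on chromosome 2 the 1 of 3, with Zfp345 lowest at -0.32. Zfp850 was the highest of 8 on chromosome 7 (27731389 to 28380253), where 7 of 8 log2 fold changes were positive, 2 members rose, and the median went from 0.327 to 0.161 without LNA Control 1. On chromosome 18, Zfp397 rose (509, 585 and 612 against 773, 804 and 732) and its close neighbour Zfp24, a SCAN zinc finger protein, fell (453, 484 and 464 against 393, 429 and 375).

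**Figure D4:**
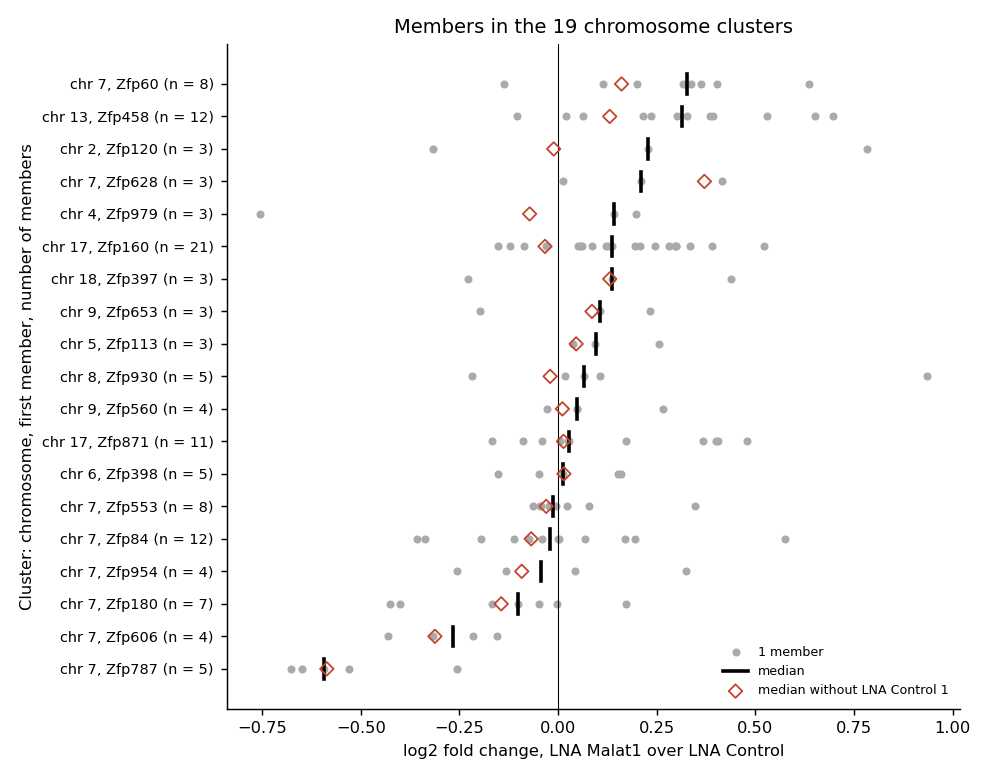
Log2 fold change (LNA Malat1 over LNA Control) of each clustered member as a grey point, with 1 row per cluster named by chromosome and first member, the median as a black bar and the median without LNA Control 1 as an open diamond. The chromosome 7 run that starts at Zfp787 keeps a median near -0.59 either way, whereas the chromosome 13 cluster that starts at Zfp458 moves from 0.314 to 0.131.

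Members with and without a KRAB A box were compared next. Of 142 with the box, 7 were called upregulated, 4 downregulated, 25 rose and 13 fell, with a median log2 fold change of 0.110. Of 124 without it, 6 were called upregulated, 4 downregulated, 24 rose and 22 fell, with a median of -0.002. Among coding genes at the level limit, 2.38% were called upregulated, 3.47% downregulated, 11.0% rose and 20.6% fell, with a median of -0.040. The difference between the medians, 0.112, was 0.022 without LNA Control 1 and 0.182 without LNA Control 3. LNA Control 1 was the lowest control in 71.8% of KRAB members, in 38.7% of the others and in 30.6% of coding genes at the level limit. LNA Control 3 was the highest control in 72.5%, 34.7% and 26.7%. The median deviation of the KRAB members from their own means was -0.181 in LNA Control 1, -0.040 in LNA Control 2 and 0.099 in LNA Control 3, a wider range than the 0.036 to 0.065 of the LNA Malat1 libraries. The KRAB median in LNA Control 3 lay above those of all 3 LNA Malat1 libraries, and the difference between groups was smaller than the spread among the controls. LNA Control 1 had 4512253 recovered reads, LNA Control 2 had 4532043 and LNA Control 3 had 5592464, and the part of depth in this pattern was not tested.

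**Figure D5:**
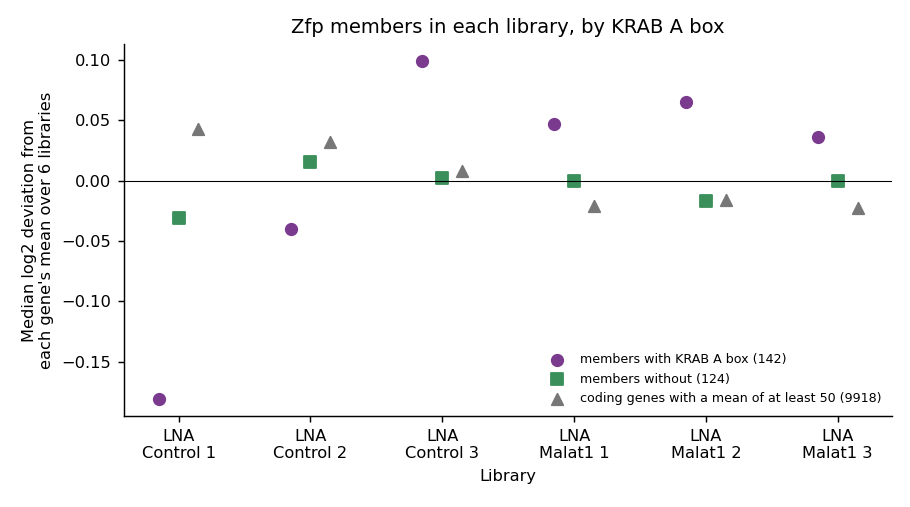
Median log2 deviation of genes from their own mean over 6 libraries, by library, for the 142 members with a KRAB A box, the 124 without and 9918 coding genes with a mean of at least 50. The KRAB members range from -0.181 in LNA Control 1 to 0.099 in LNA Control 3, while the other series stay within 0.05 of 0.

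Levels were compared between genes as normalized count per kb of exon. The median level was 44.3 per kb over the members, 36.9 with a KRAB A box and 53.6 without, where coding genes at the level limit had 69.9. The highest value was that of Zfp469 (455 per kb). Its exon length is that of GENCODE M21, which has no coding transcript of it under a searched symbol, while the authors counted reads with an Ensembl annotation. Whether the exons are the same in both was not checked, so its rank is uncertain. Next came Zfp809 (214 per kb), Zfp280c (213 per kb), Zfp106 (210 per kb) and Zfp207 (186 per kb). None of these 5 passed the test. Zfp469 had counts of 1694, 1269 and 1170 in the controls and 1529, 1233 and 1511 in LNA Malat1. The lowest level per kb was that of Zfp964, at 6.78. Across 266 members the log2 fold change had a Spearman rho of 0.10 with the number of fingers and of -0.04 with the mean count, given as a description of genes that share the same 6 libraries.

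Of 26 Zfp genes listed for a well-known function, 25 were members (Zfp423 was not). Of these, 7 rose (28%, beside 18.3% of the family and 11.0% of coding genes at the level limit) and 3 fell (12%, beside 13.1% and 20.6%). Of the 25, only Zfp703 was called. The CCCH proteins of the Zfp36 group bind AU-rich elements and speed mRNA decay. Zfp36l1 rose from 85, 85 and 78 to 103, 99 and 103 (log2 fold change 0.30, adjusted p = 0.042 in limma), although 50.4% of its windows also occur in Gm26669 or another transcript. Zfp36 was at 78, 59 and 90 against 99, 104 and 82 with overlapping groups (0.34, adjusted p = 0.12 in limma), and Zfp36l2 had a log2 fold change of -0.01 (SE 0.07).

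Among ubiquitin ligases, Zfp91 fell from 1042, 1093 and 1050 to 920, 944 and 924 (log2 fold change -0.19, adjusted p = 0.011 in limma), and Zfp598, which marks collided ribosomes, fell by 0.16 on the log2 scale (adjusted p = 0.046 in limma). Zfp318, a regulator of IgD transcript processing in B cells, rose from 560, 504 and 511 to 802, 764 and 781. Its log2 fold change of 0.58 (SE 0.06, adjusted p = 1.2e-05 in limma) was just short of 1.5-fold. Of transcription factors, Zfp281, a repressor known from stem cells, rose by 0.24 on the log2 scale, Zfp384 fell by 0.18 on the log2 scale, and Zfp568, the KRAB repressor of placental Igf2 transcripts, rose by 0.20. Zfp292 rose by 0.32 with controls spread from 1206 over 1512 to 1826, and Zfp655 rose by 0.15.

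No change passed the test for Zfp106, an RNA-binding protein needed by motor neurons and muscle (-0.09, SE 0.06), Zfp207, a spindle assembly factor (0.01, SE 0.05), Zfp143, an activator of small nuclear RNA genes (-0.06, SE 0.05), or Zfp148 (0.02, SE 0.08), all as log2 fold changes. The same holds for Zfp57, which guards imprinted methylation (0.20, SE 0.17), Zfp809, a silencer of retroviral elements (0.11, SE 0.05), and Zfp638, another protein of retroviral silencing (0.30, SE 0.11), and for Zfp131, Zfp217, Zfp326, Zfp462, Zfp622 and Zfp644, whose log2 fold changes lay between -0.11 and 0.12.

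The partners through which KRAB proteins silence chromatin were listed separately, and 23 of 24 names were in the table. The name not found, Fam208a, is an earlier name of Tasor, which was measured. None reached 1.5-fold, and 5 rose and 5 fell. Each is 21.7% of the list, where 14.3% of all genes tested rose and 14.0% fell, and 11.0% and 20.6% of coding genes at the level limit. The median log2 fold change was -0.035, and 0.016 with quantile normalization. Without LNA Control 2 or one of the LNA Malat1 libraries only 3 fell, and 3, 1, 2 and 3 rose without LNA Control 2 and LNA Malat1 1, 2 and 3. The core corepressor Trim28 had 1031, 975 and 927 in the controls and 844, 832 and 832 in LNA Malat1 (a log2 change of -0.22, adjusted p = 0.0077 in limma). Setdb1, the H3K9 methyltransferase it recruits, had 837, 841 and 775 against 683, 624 and 628 (-0.34, adjusted p = 0.00081 in limma), so both fell with no overlap. Uhrf1, Cbx5 and Dnmt3a, which act in DNA methylation and heterochromatin, fell by 0.29, 0.20 and 0.19 on the log2 scale. Tasor and Mphosph8, subunits of the HUSH silencing complex, rose by 0.48 and 0.27, Morc2a by 0.21 and Atf7ip, which stabilises Setdb1, by 0.17, all on the log2 scale. Pphln1, the other HUSH subunit, had 387, 441 and 396 against 362, 350 and 376, a log2 fold change of -0.17 (adjusted p = 0.066 in limma) that did not pass the test although all LNA Malat1 libraries lay below the controls. Atrx rose by 0.50 from controls of 1629, 2691 and 3125 to 3376, 3404 and 3353, with LNA Control 1 far below the rest.

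Related zinc finger families at the same level limit were counted for comparison, with no test between families. Of 35 Zbtb genes, 4 rose, 5 fell and 1 was called downregulated. Of 14 Zscan and Zkscan genes, 2 rose and 1 fell. Among 19 Klf and Sp genes, 4 rose, 6 fell and 2 were called upregulated. Of all coding genes at the level limit, 11.0% rose, 20.6% fell, 2.38% were called upregulated and 3.47% downregulated. Within the Zfp family, 191 members overlap no other gene of the table, and of these 10 were called upregulated and 6 downregulated. Among the 222 with less than 10% shared windows the numbers were 10 and 7.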

How the data were processed

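RNA of 3 LNA Control and 3 LNA Malat1 samples of HL-1 cells was sequenced as single-end reads of 75 bases. By the paper's methods and the submitters' processing notes, the authors trimmed reads (Trimmomatic 0.39), aligned them to mm10 with the Ensembl annotation (STAR 2.7.7a), counted reads on exons per gene (featureCounts 1.6.5), dropped reads on multiple genes or places, and used DESeq2 1.30.0. Whether counting used the strand is not given in the sources used here. The deposited values are a score, read counts that were scaled per library and then rounded, so count models were not applied. Here limma 3.58.1 (R 4.3.3) was run on log2(value + 1) with an intensity trend, two-sided, for genes with a mean of at least 5, with Benjamini-Hochberg adjustment over all of them, which understates changes of low genes. An exact permutation test of 3 against 3 cannot go below p = 0.1 and was not used. The limma script was tested on simulated data.

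The members and lists were chosen with earlier results of these data known. Genes are named by rule: Malat1, the 8 largest rises and 8 largest falls among called members without overlap, the 5 highest per kb, the 3 on each side of the level limit, cluster extremes, and lists of known roles and of KRAB partners. Others were named after their values were seen. Gene positions are those of the deposited table (mm10), and 265 of 268 members have the same position in GENCODE M21. The plan named reference proteins, but GENCODE M21 transcripts were translated instead. Promoters are from RefSeq (GRCm38.p6).

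Alternatives were a replicate block, pseudocounts of 0.1 and 5, median-of-ratios, quantile and equal-total scaling, filters at no minimum or at 50, voom on recovered reads, the near-identical libraries merged, each library left out, other fold limits (2-fold, and limma's test against 1.5-fold), other level limits (20 and 100), and members that overlap no gene. The KRAB thresholds of 10 and 16 residues and the limit on shared windows were chosen after seeing the data.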

Additional observations from a re-analysis of the deposited data

How the results depend on the processing

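The 8 downregulated members varied from 6 to 9 and the 13 upregulated from 7 to 23 with each library left out. The numbers that rose and fell at an adjusted p of 0.05 (49 and 35) varied from 26 to 76 and from 21 to 44. The members' median log2 fold change varied from 0.013 to 0.073. With the near-identical LNA Malat1 libraries 1 and 3 merged, 8 members were called upregulated, 26 rose and 22 fell, and 16 of the 21 called members remained called. A 2-fold limit left 1 upregulated and 0 downregulated (limma, with 35 lower at an adjusted p of 0.05), and a limma test against 1.5-fold left 1 and 1. Among members with a mean of at least 100, 7 were called upregulated. The other settings kept the called counts within 1.5 times. Upregulated against downregulated, 13 and 8 in the full set, became 7 and 8 without LNA Malat1 1, 7 and 7 without LNA Control 2, 8 and 8 without LNA Malat1 3, and 8 and 9 in the merged set. Without any 1 library no called member changed direction, but without LNA Control 1 the medians of 4 clusters changed sign: from 0.138 to -0.033 (chromosome 17), 0.228 to -0.011 (chromosome 2), 0.142 to -0.072 (chromosome 4) and 0.065 to -0.020 (chromosome 8). Clusters numbered 17 and 23 with 200 kb and 1 Mb between neighbours. The KRAB difference of 0.112 was 0.106 and 0.116 with 10 and 16 residues required. Deviations of same-numbered libraries correlated weakly, by 0.086, 0.182 and 0.083 over 10490 genes, and each LNA Malat1 library correlated best with its own number. Pairs with unlike numbers gave -0.189 to 0.046. Whether the replicate numbers mark pairs was not tested, and the main fit did not pair the libraries. With the replicate number as a block, 13 and 8 members were called, the same 21, and 58 rose and 36 fell. Members near a mean of 50 rest on few reads, and 6 of the 21 called members had one group below that mean.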
